A study of Mus musculus with 4 samples.

Results

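The genes described here are Gse1 and 9 genes of the LSD1-CoREST corepressor, namely Kdm1a, Rcor1, Rcor2, Rcor3, Hdac1, Hdac2, Hmg20b, Zmym2 and Phf21a. A binding peak of SCL, a basic helix-loop-helix transcription factor encoded by Tal1, was attributed to one of them when the protein-coding transcription start site (TSS) nearest to its summit belonged to that gene in the GENCODE vM1 annotation of the mouse mm9 genome. The read-through gene Gm20388, which spans the Gse1 locus, was left out as a source of TSSs. By this rule, 25 of the 12885 SCL peaks belonged to the 10 genes. SCL binding was mapped by chromatin immunoprecipitation and sequencing (ChIP-seq) in FLK1+ mesoderm, sorted on the surface receptor FLK1 from day 3.5 embryoid bodies. Embryoid bodies (EBs) are aggregates of differentiating embryonic stem (ES) cells, and the ES cells here were the wild-type J1 line, labelled with the strain C57Bl/6 X Sv129. There were 2 ChIP libraries made with an in-house rabbit antiserum against SCL and 2 input libraries of unenriched chromatin made without antibody. The replicates were of this single line, and binding in cells without SCL was not analysed here. The deposited peak list is a single call on the merged libraries, so no value below has a spread between replicates, and all intervals are at 95%. Intervals of a fold or fragment count are Poisson and cover only the counting error of ChIP fragments, with the background held fixed. Those of medians and of shares of peaks treat peaks as independent draws, although 19 of the 25 lie at a single locus, and are given as a description.

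LSD1, encoded by Kdm1a, removes methyl groups from lysine 4 of histone H3 and acts as a corepressor when bound to a CoREST scaffold (Rcor1, Rcor2 or Rcor3) that links it to the histone deacetylases HDAC1 and HDAC2. BHC80 (Phf21a), BRAF35 (Hmg20b) and the zinc finger protein ZMYM2 are associated subunits, and GSE1 is a coiled-coil protein recovered with LSD1-CoREST complexes. In blood cells, SCL binds E-box DNA as a dimer with an E protein, is joined to GATA factors through LMO2 and LDB1, and the repressors GFI1 and GFI1B recruit LSD1 and CoREST to their target genes. A peak near one of these genes describes where SCL was found on DNA, not whether the gene was expressed.

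Motif shares are counted below over all peaks of each group compared, and the sequences under the strongest summits are shown first as examples. Each is a run of 101 bases centred on a summit in mm9 (NCBIM37), for the highest peak of each gene that had one and the 5 highest of Gse1. Peaks are numbered along the chromosome within each gene. Capitals mark GATA motifs (AGATAA or AGATAG, or with T in place of the first A, TGATAA or TGATAG), E-boxes (CANNTG) and both parts of the composite motif, in which CTG is followed after 7 to 9 bases by GATA. All were searched on both strands, and a GATA motif may lie within a composite or overlap an E-box. None of these windows touched an annotated exon.
Gse1 peak 2, chr8:122860040-122860140, plus strand: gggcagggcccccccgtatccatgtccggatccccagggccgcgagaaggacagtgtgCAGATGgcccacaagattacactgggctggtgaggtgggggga
Gse1 peak 4, chr8:122894020-122894120, minus strand: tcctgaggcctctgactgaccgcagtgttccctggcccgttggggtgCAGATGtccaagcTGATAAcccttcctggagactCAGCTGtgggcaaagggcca
Gse1 peak 5, chr8:122895804-122895904, minus strand: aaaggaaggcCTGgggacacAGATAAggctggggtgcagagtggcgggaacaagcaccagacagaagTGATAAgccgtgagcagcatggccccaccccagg
Gse1 peak 13, chr8:122999550-122999650, plus strand: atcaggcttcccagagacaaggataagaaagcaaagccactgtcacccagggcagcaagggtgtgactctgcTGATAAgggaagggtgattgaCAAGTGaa
Gse1 peak 15, chr8:123011031-123011131, plus strand: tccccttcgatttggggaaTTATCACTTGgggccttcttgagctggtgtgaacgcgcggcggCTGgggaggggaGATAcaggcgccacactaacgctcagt
Phf21a peak 3, chr2:92014562-92014662, plus strand: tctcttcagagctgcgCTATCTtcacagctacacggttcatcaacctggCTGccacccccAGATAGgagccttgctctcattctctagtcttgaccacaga
Rcor1 peak 1, chr12:112266855-112266955, plus strand: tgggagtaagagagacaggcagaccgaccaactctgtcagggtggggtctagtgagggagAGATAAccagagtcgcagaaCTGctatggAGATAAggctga
Hdac1 peak 1, chr4:129220059-129220159, plus strand: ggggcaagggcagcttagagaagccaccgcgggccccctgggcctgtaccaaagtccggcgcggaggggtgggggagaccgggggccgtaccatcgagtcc

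SCL peaks were spread unevenly over the 10 genes. Gse1 had 19, Phf21a had 4, Rcor1 and Hdac1 had 1 each, and Kdm1a, Rcor2, Rcor3, Hdac2, Hmg20b and Zmym2 had none. With 4 of 10 genes bound, the set stood beside 29.0% of all 22237 protein-coding genes with at least 1 nearest peak. A count of 5 or more peaks was reached by Gse1 alone of the 10, against 2.12% of all protein-coding genes. A single further gene, Gadd45g, had more peaks than Gse1 (21, the strongest with a fold of 49.4), and Med13l had as many (19, the strongest with a fold of 70.4).

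The fold enrichment given by MACS2 divides the ChIP signal at a summit by the background expected there. Over the 25 peaks of the set the median fold was 13.1 (interval of the median 7.27 to 19.8), beside 11.1 (11.0 to 11.4) over all 12885 peaks, a value inside the interval of the set. The median of the set was 7.27 when only summits in the gene or 10 kb on either side were kept and 7.98 within 100 kb of the TSS. A fold of at least 50 was reached by 6 of the 25 peaks, 5 at Gse1 and 1 at Phf21a, where 7.26% of all peaks reached it. The count was 2 in the gene or 10 kb on either side and 3 within 100 kb of the TSS. Of these, 5 exceeded 100, as did 215 of all peaks (1.67%). At the other end, 10 of the 25 had a fold under 10, of which 7 were at Gse1, where 43.4% of all peaks were as low.

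**Figure D1:**
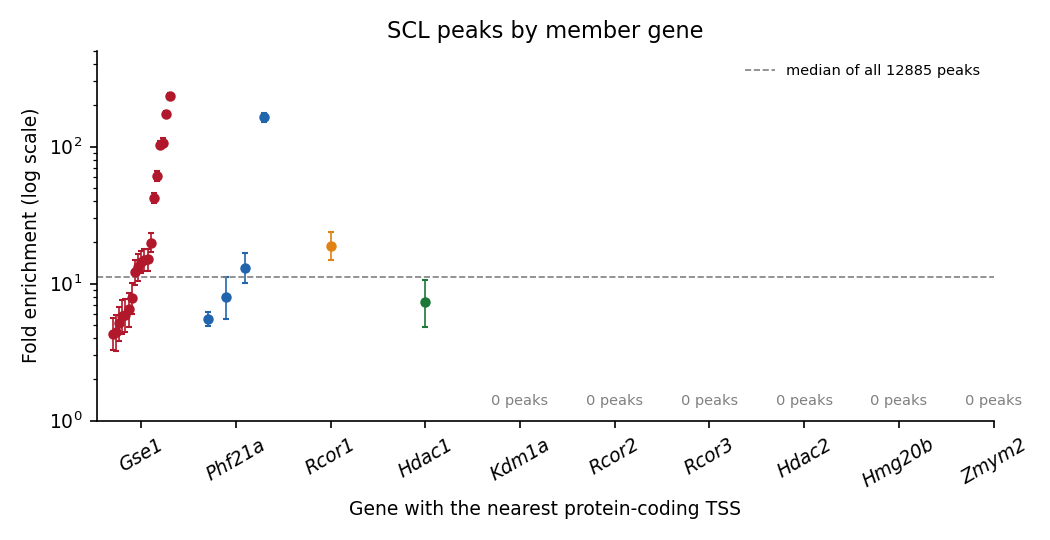
Fold enrichment (log scale) of each SCL peak by the gene with the nearest protein-coding TSS, with Poisson 95% intervals of the ChIP fragment count as bars and the median of all peaks (11.1) as a dashed line. Gse1 ranged from 4.31 to 232.8, Phf21a had 1 peak far above its other 3, and 6 of the 10 genes had no peak.

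Kdm1a, the demethylase itself (ENSMUSG00000036940.9, chr4:136106455-136158638, minus strand), had no SCL peak in its body or within 10 kb of it. The summit nearest to any of its TSSs lay 50442 bp away, had a fold of 27.4 and was nearer to Ephb2, which encodes an ephrin receptor. The catalytic subunit therefore had a peak in its wider neighbourhood that the rule gave to another gene.

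Of the CoREST scaffold genes, 1 was attributed a peak. Rcor1 (ENSMUSG00000037896.10, chr12:112277561-112354112, plus strand) had 1 peak at chr12:112266429-112267291, in intergenic sequence 10656 bp upstream of its TSS. It had a fold of 18.9 (14.8 to 23.8), from 71 fragments over a background of 2.80, and ranked 3464 of all peaks. At 863 bp it was wider than the median peak of 397 bp. Rcor2 (chr19:7341815-7349715, plus strand) had none, and the summit nearest to its TSSs was 34775 bp away with a fold of 7.35 and belonged to Gm17227. Rcor3 (chr1:193922652-193961892, minus strand) also had none, with the closest summit 143355 bp away at a fold of 9.17 and attributed to Rd3. The fold of the Rcor1 peak lay above the median of all peaks, and both neighbouring summits named for Rcor2 and Rcor3 lay below it.

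Of the deacetylase genes, Hdac1 was attributed a peak and Hdac2 was not. Hdac1 (ENSMUSG00000028800.9, chr4:129193348-129219957, minus strand) had 1 promoter peak at chr4:129219705-129220255, with its summit 152 bp upstream of the TSS and the interval reaching across it. It was the weakest of the set by depth, with 26 fragments over a background of 2.71 and a fold of 7.27 (4.84 to 10.5). Hdac2 (chr10:36694350-36721695, plus strand) had no peak, and the summit nearest to its TSSs lay 222450 bp away with a fold of 10.2, attributed to 5930403N24Rik.

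Of the associated subunits, Hmg20b, an HMG-box protein, and Zmym2, a zinc finger protein, had no peak. For Hmg20b (chr10:80808793-80813225, minus strand) the closest summit was 31746 bp from a TSS, had a fold of 21.2 and was attributed to Dohh. For Zmym2 (chr14:57505490-57579182, plus strand) it was 492751 bp away, with a fold of 21.3, and attributed to Rnf17. Zmym2 was the gene of the set with the longest distance to an SCL summit. None of the 6 genes without a peak had one in the gene or 10 kb on either side of it.

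Phf21a, which encodes a PHD finger protein that binds unmethylated lysine 4 of histone H3, had 4 peaks, all intronic. The gene (ENSMUSG00000058318.8, chr2:91933274-92204823, plus strand) is long and has 17 annotated TSSs. Peak 3 (chr2:92014390-92014777), in intron 1, had a fold of 163.6 (151.5 to 176.4) from 677 fragments over a background of 3.14. It ranked 52 of all peaks by fold and lay 9651 bp upstream of an internal TSS at 92024263. This was the only SCL peak among the genes other than Gse1 to exceed a fold of 50.

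The other 3 peaks of Phf21a were far weaker. Peak 2 (chr2:91983839-91984348), also in intron 1, had a fold of 13.1 (10.02 to 16.8) from 60 fragments and lay 40170 bp upstream of the same internal TSS. Peak 4 (chr2:92083962-92084236), in intron 4 of 15, had a fold of 7.98 (5.51 to 11.2) from 31 fragments, 15464 bp downstream of a TSS at 92068636. The intervals of peaks 2 and 4 overlapped. Peak 1 (chr2:91933768-91934003), 608 bp downstream of the first TSS, had 305 fragments but a fold of only 5.51 (4.91 to 6.17). Its background of 54.5 fragments was 1 of 70 among all peaks above 10 times the median, and the part of that background in the call was not tested.

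Gse1 (ENSMUSG00000031822.10, chr8:123012766-123105290, plus strand) carried most of the SCL binding in the set. Of its 19 summits, 16 lay upstream of its first TSS, up to 153891 bp away and in sequence annotated as intergenic apart from the read-through gene, and 3 lay in intron 1 of 15. All 19 fell in introns of the read-through gene Gm20388. Within 100 kb of the TSS Gse1 had 13 peaks and in the gene or 10 kb on either side 6, and under both rules its highest fold was 106.6, below the 163.6 of Phf21a peak 3. The 3 intronic peaks were among the weakest, with folds of 4.31, 5.76 and 4.41, while the 16 upstream had a median of 15.0 and reached 232.8. Each of the 3 had between 45 and 53 fragments, close to the median pileup of 53 over all peaks, and their fold intervals overlapped.

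**Figure D2:**
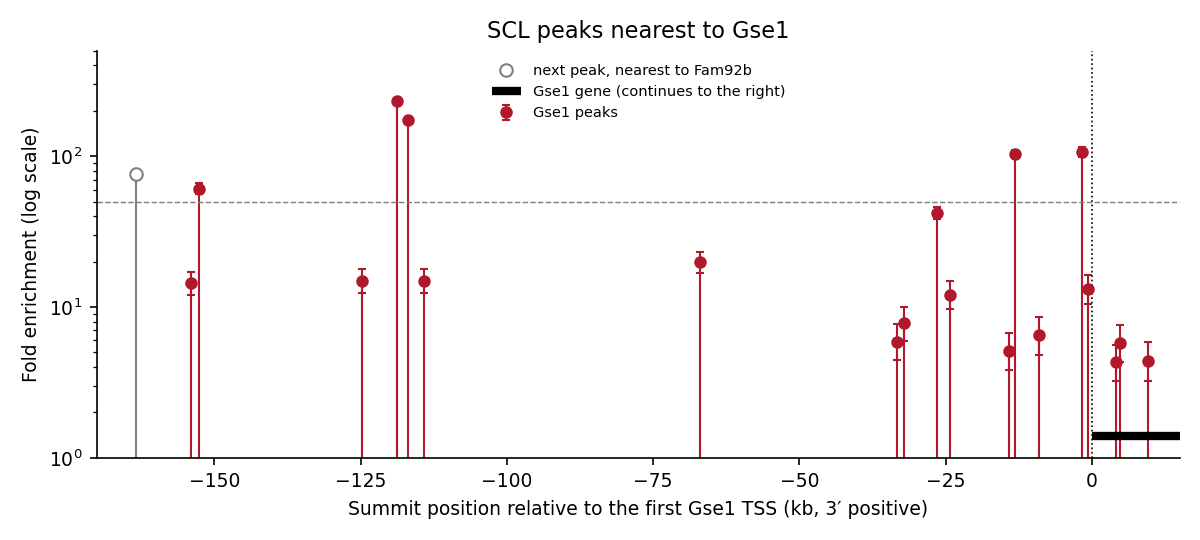
Fold enrichment (log scale) against summit position relative to the first Gse1 TSS in kb for the 19 Gse1 peaks (filled, with Poisson 95% intervals) and the preceding peak attributed to Fam92b (open). The dashed line marks a fold of 50, which 5 Gse1 peaks exceed, all of them upstream of the TSS.

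The strongest pair of peaks stood far upstream. Gse1 peak 4 (chr8:122893640-122894468), 118696 bp upstream of the TSS, had a fold of 232.8 (221.7 to 244.3) and ranked 13 of 12885. Gse1 peak 5 (chr8:122895421-122896359), with its summit 1784 bp from that of peak 4, had a fold of 173.4 (166.0 to 181.0) and ranked 42. By depth the order of the pair turned round, with 1649 fragments (1570 to 1731) at peak 4 and 2080 (1992 to 2171) at peak 5. The background was 6.09 at peak 4 and 11.0 at peak 5, and neither the fold nor the fragment intervals of the pair overlapped. The fold intervals hold these backgrounds fixed, so the order of the pair by fold leaves out any error in the background. Peak 5 ranked 6 of all peaks by p, and peak 4 ranked 11.

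A further pair of strong peaks lay close to the gene. Gse1 peak 15 (chr8:123010310-123011561), 1685 bp upstream of the TSS, had a fold of 106.6 (99.1 to 114.6) from 739 fragments and was the widest of the set at 1252 bp. Gse1 peak 13 (chr8:122999197-123000170), 13166 bp upstream, had a fold of 103.2 (97.3 to 109.3) from 1147 fragments. Their fold intervals overlapped, so their order by fold could not be resolved. The fifth, peak 2 (chr8:122859711-122860363), had a fold of 60.9 (55.8 to 66.5) from 507 fragments and was among the farthest at 152676 bp. Together, the 4 strongest Gse1 peaks held 72.6% of the summed fold and 73.4% of the 7651 fragments summed over its 19 summits.

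Between these stood peaks of intermediate and low enrichment. Gse1 peak 10 (chr8:122985886-122986678), 26447 bp upstream, had a fold of 42.0 (38.4 to 45.8) from 503 fragments, just under the level called strong here. Gse1 peak 7, isolated at 66946 bp upstream, had a fold of 19.8 (16.9 to 23.2) from 154 fragments. Peaks 1, 3, 6, 11 and 16 had folds from 12.1 to 15.0, with 81 to 120 fragments each, and did not differ beyond their intervals. Peak 16 had the only Gse1 summit within 1 kb of the TSS, at 733 bp upstream. Peaks 8, 9, 12 and 14 were weaker, with folds of 5.89, 7.82, 5.11 and 6.48 from 46 to 59 fragments.

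The 19 Gse1 summits spanned 163524 bp, with gaps between neighbours from 750 bp to 47235 bp and a median gap of 4467.5 bp. Of 12885 windows of that length, each starting at an SCL summit, 6 (0.0466%) held at least 19 summits, 5 of them on other chromosomes, and the median window held 2. This describes the list only, since the length is that of the Gse1 summits themselves, the windows overlap and the Gse1 window is among the 6. Joined when at most 10 kb apart, the Gse1 summits formed 4 chains and the lone peak 7. Peaks 12 to 19 made the longest, with 8 summits over 23739 bp around the TSS. Peaks 3 to 6, with the strongest pair, covered 10502 bp, and peaks 8 to 11 covered 9080 bp. Peaks 1 and 2 were chained over 10645 bp with a peak attributed to another gene. The peaks of Phf21a, Rcor1 and Hdac1 each stood alone at 10 kb. The grouping follows the joining distance, since at 5 kb the Gse1 summits formed 6 chains of 2 or more, and at 50 kb all 19 fell in 1 chain of 24 peaks over 286818 bp. At 50 kb the Rcor1 and Hdac1 peaks and 3 of the 4 Phf21a peaks were also joined to others.

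The outer limit of the Gse1 group is a consequence of the nearest-TSS rule. The preceding coding TSS, that of Fam92b, lies at 122701369, so that a gap of 311397 bp without a coding TSS separates it from Gse1 and the rule changes gene at 122857067. The farthest summit given to Gse1 was 153891 bp from its TSS and 157506 bp from that of Fam92b. Just outside, a peak at chr8:122848997-122849768 with a fold of 76.7 was 148076 bp from the Fam92b TSS and 163321 bp from that of Gse1. On the other side, the next SCL peak (chr8:123343745-123344241, fold 11.4) belonged to Irf8, the gene of a blood transcription factor. The peak list holds no measure of which gene a distant peak acts on.

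Input background was higher at Gse1 than over the list. The 19 Gse1 summits had backgrounds from 5.24 to 11.5 fragments, with a median of 7.34, where the median was 3.67 over all peaks and 5.24 over the 868 peaks of chromosome 8. Among all peaks these backgrounds stood at percentiles from 80.2 to 98.9. The summits of Rcor1 and Hdac1 and peaks 3 and 4 of Phf21a had backgrounds under the median of all peaks. Since the fold divides by the background, Gse1 peaks needed more fragments for the same fold. The median pileup was 115 fragments at Gse1, 87 over the set and 53 over all peaks. The part of the higher background in the number of Gse1 peaks called was not tested.

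**Figure D3:**
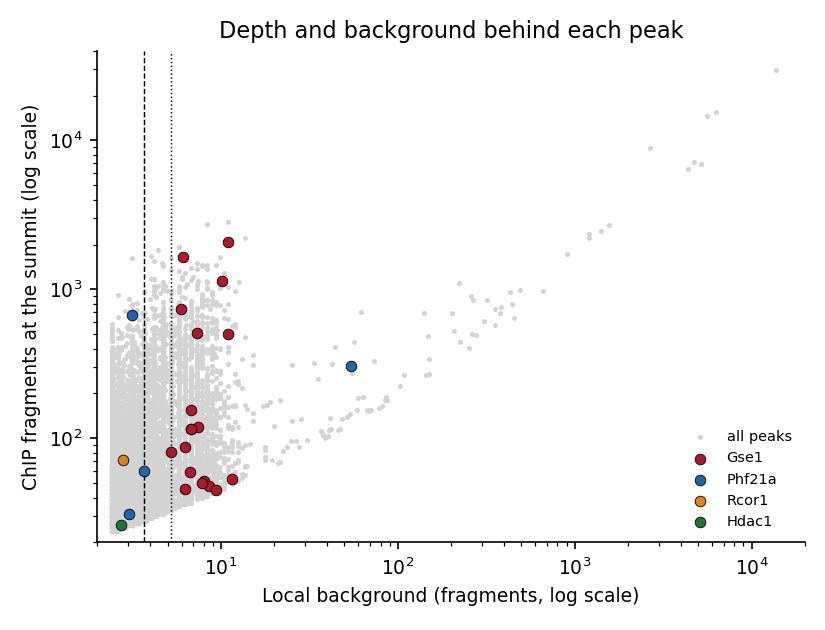
ChIP fragments at the summit against local background in fragments (both log scales) for all peaks (grey) and for those of Gse1, Phf21a, Rcor1 and Hdac1. The dashed line is the median background of all peaks (3.67) and the dotted line that of chromosome 8 (5.24), and no Gse1 peak lies to the left of the dotted line.

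Position and base composition were also set beside the whole list. The median distance from summit to TSS was 15464 bp in the set (interval 9633 to 40170), which holds the 24135 bp of all peaks. It was 40170 bp over the 15 peaks with a fold of at least 10. A summit within 1 kb of the TSS was found in 3 of the 25 peaks, 1 each at Gse1, Phf21a and Hdac1, where 7.59% of all peaks had one. Upstream summits made up 20 of the 25, of which 16 were at Gse1, against 48.9% of all peaks. The median width was 653 bp in the set (interval 416 to 789), 397 bp over all peaks and 417.5 bp over those of chromosome 8. It was 734 bp at Gse1 and 331.5 bp at Phf21a. The windows of 101 bp had a median GC content of 58.4% in the set and 59.4% at Gse1, against 50.5% over all peaks and 51.5% over those of chromosome 8. The promoter peak of Hdac1 had the highest value in the set, 72.3%.

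GATA motifs lay within 50 bp of the summit in 18 of the 25 peaks (72%, exact binomial interval 50.6 to 87.9), and in 73.2% of all peaks. In windows 1 kb away from all summits the share was 17.8%. At Gse1, 14 of 19 windows (73.7%) had one. The set thus carried the motif about as often as the list as a whole, and neither its share nor that of Gse1 stood apart from it.

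E-boxes, the binding sequence of SCL and its E protein partners, were found in 10 of the 25 windows (40%, 21.1 to 61.3), beside 52.6% of all peaks and 42.4% of windows 1 kb away. All 10 were at Gse1, where the share was 52.6% of 19. The form CAGCTG accounted for 6 of these windows (31.6% of Gse1 peaks, 12.6 to 56.6), an interval that holds the 14.1% of all peaks, and windows 1 kb away had it in 4.70%. The form CAGATG was in 4 windows, 21.1% of Gse1 peaks, beside 19.6% of all peaks. These forms were looked at after the sequences had been seen. None of the windows of Phf21a, Rcor1 and Hdac1 held the letters of an E-box within 50 bp of the summit. With 100 bp on each side, 15 of the 25 peaks (60%) held one, 12 of them at Gse1, beside 73.6% of all peaks.

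The composite of CTG and GATA was present in 9 of the 25 windows (36%, 18.0 to 57.5), where 32.9% of all peaks and 3.07% of windows 1 kb away had it. Of these, 5 were at Gse1 (26.3%), in peaks 5, 6, 8, 14 and 15, with 8, 9, 8, 8 and 9 bases between CTG and GATA. The other 4 were Phf21a peaks 2, 3 and 4 and the Rcor1 peak, with 8, 9, 9 and 7 bases. With 25 bp on each side, 0 of the 19 Gse1 peaks held it (exact upper limit 17.6%), beside 19.0% of all peaks. In the set, 3 of the 25 (12%) did. That upper limit treats peaks of a single locus as independent draws. It is also among several combinations of motif and window looked at, so it does not show a lack of the composite. With 100 bp on each side, 9 of the 19 Gse1 peaks (47.4%) and 13 of the 25 (52%) held it, beside 41.2% of all peaks. Among peaks with a fold of at least 50, the composite within 50 bp was in 3 of 6 in the set and in 52.9% of the 935 in the whole list.

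**Figure D4:**
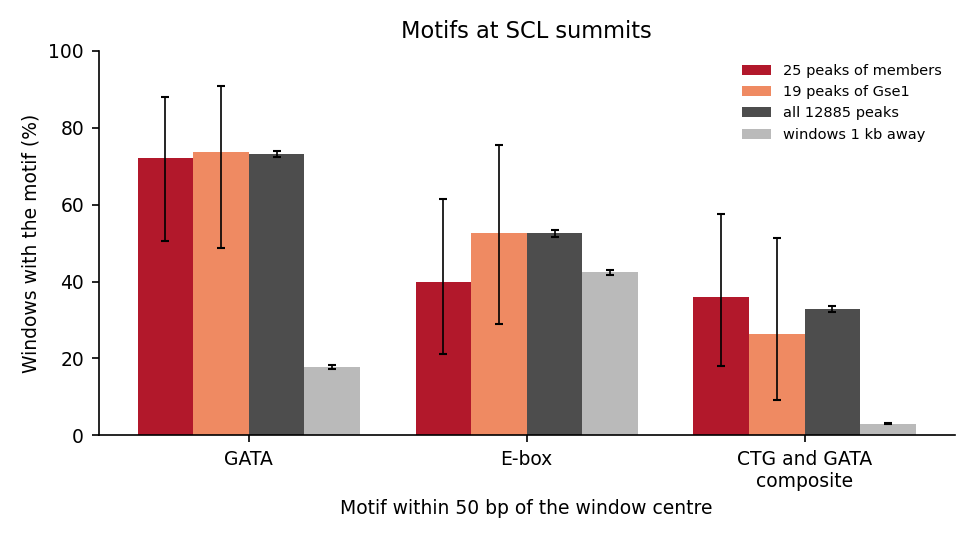
Share of windows (%) of 50 bp on each side with a GATA motif, an E-box or the CTG and GATA composite, for the 25 peaks of the set, the 19 of Gse1, all 12885 peaks and windows 1 kb away, with exact binomial 95% intervals. The intervals of the set and of Gse1 hold the share of all peaks for each of the 3 motifs at this window size.

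Read beside their values, the printed sequences show different arrangements at the strongest peaks. In Gse1 peak 4 (fold 232.8), CAGATG on the printed strand was centred 0.5 bp from the summit and was followed by TGATAA, centred 12.5 bp from the summit, with 8 bases between the E-box and GATA. Gse1 peak 5 (fold 173.4) had no E-box but 2 GATA motifs, of which AGATAA formed the composite, 33 bp from the summit. In Phf21a peak 3 (fold 163.6) the composite was centred 6.5 bp from the summit. Gse1 peak 15 (fold 106.6) held TGATAA, read on the strand opposite to the printed one, overlapping the E-box CACTTG, and a composite 19.5 bp from the summit. Gse1 peak 13 (fold 103.2) had TGATAA at 24.5 bp and CAAGTG at 45.5 bp, with no composite.

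Of the 5 Gse1 peaks with a fold of at least 50, only peak 2 had no GATA motif in the window, and the next by fold, peak 10, had none either. Gse1 peak 2 (fold 60.9) held CAGATG at 10.5 bp from the summit, and Gse1 peak 10 (fold 42.0) held CAGATG at 9.5 bp, with CAGCTG at 46.5 bp. An E-box followed by GATA after 7 to 9 bases, counted after the sequences had been seen, occurred at Gse1 peaks 4, 6 and 8 (12% of the set), beside 9.80% of all peaks and 0.768% of windows 1 kb away. In the set, 3 of the 25 peaks had none of the 3 motifs in this window, where 10.3% of all peaks had none. These were the promoter peak of Hdac1, Phf21a peak 1 and Gse1 peak 17, all with folds under 10. The ETS core AGGAA, also examined afterwards, was in 9 of 25 windows (36%) and in 51.9% of all peaks.

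To set the 10 genes among other corepressors, peaks were counted for 36 genes in 4 lists. At least 1 peak was found for 15 of them (41.7%), and 3 had 5 or more. This share stands beside the 40% of the set and the 29.0% of all protein-coding genes. The lists were chosen with earlier results known, and the difference between these shares was not tested. Among 9 further partners of CoREST, 4 had a peak, with the strongest at Zfp217, a zinc finger protein found with CoREST (11 peaks, highest fold 98.6). Of 12 genes of the NuRD deacetylase complex, 4 had a peak, the strongest at Gatad2a (3 peaks, 20.1). Of 9 SIN3 complex genes, 3 had one, the strongest at Sin3b (1 peak, 8.74), while Arid4a had 2 peaks. Of 6 NCoR complex genes, 4 had one, the strongest at Gps2 (1 peak, 21.0), while Tbl1xr1 had 10 peaks. No gene of these 4 lists reached the peak number or the highest fold of Gse1.

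**Figure D5:**
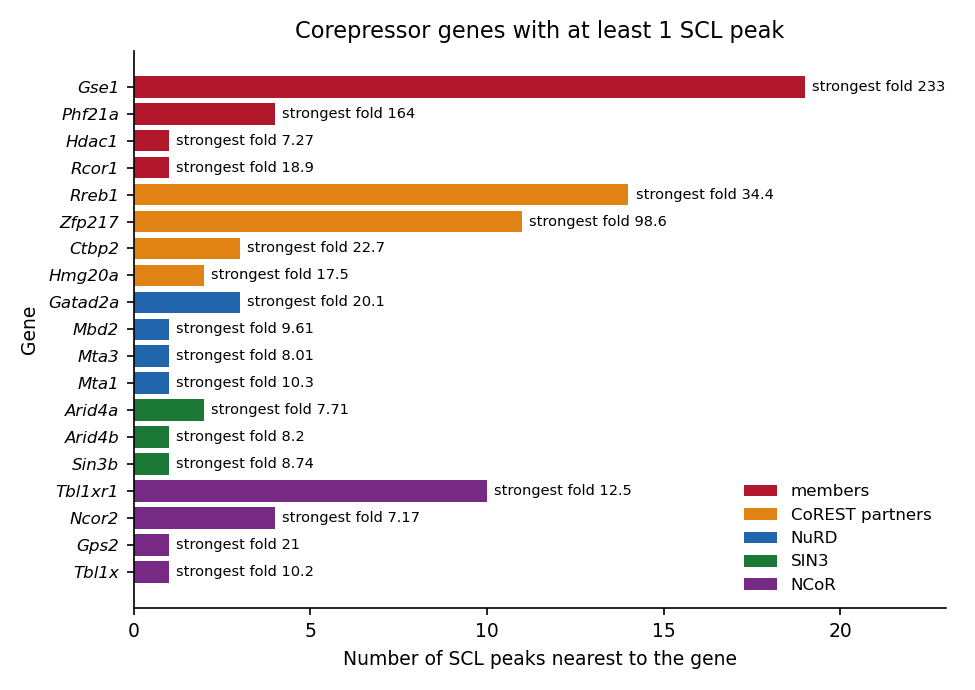
Number of SCL peaks with the nearest protein-coding TSS at each corepressor gene that had any, coloured by list, with the fold of its strongest peak. Gse1 (19 peaks, 232.8) leads both counts and folds, followed in number by Rreb1 (14 peaks, 34.4) and Zfp217 (11 peaks, 98.6).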

How the data were processed

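SCL ChIP-seq was analysed from a peak list of 2 merged ChIP libraries against 2 merged inputs. The authors aligned paired-end reads to mm9 with Bowtie 1.1.2, removed duplicates, called peaks with MACS2 2.0.10 and set the list with the irreproducible discovery rate. The deposited positions are peak starts, ends and summits, and were converted to count from 1. The fold enrichment, a ratio, is deposited as the authors' MACS2 value. The −log10 p and −log10 q are also the authors' deposited values. The list does not state the depth of each library.

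From each fold and p, the MACS2 equations (fold = (pileup + 1) / (background + 1), and a Poisson p) were solved for the ChIP fragments and background at the summit, and matched p to within 0.001 in 99.9% of peaks. The solver was tested on simulated data. Fold intervals hold the background fixed, and intervals of medians come from the order of the values. Genes and TSSs came from GENCODE vM1, and sequence from NCBIM37. Python 3.11.15 with numpy 2.4.6, pandas 2.3.3 and scipy 1.17.1 was used.

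The genes, lists and thresholds were chosen with earlier results of these data known, so counts are set beside all genes or peaks with no test. All 10 genes and all 25 peaks are reported. Sequences are those of the highest peak per gene and the 5 highest of Gse1. Alternatives changed the TSS source, the assignment rule, the fold or q threshold, peak merging, the motif window and the joining distance.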

Additional observations from a re-analysis of the deposited data

How the results depend on the processing

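Of 68 alternative values, 56 stayed within 1.5 times a count or within the interval of a median or share, and 12 moved further. Among the 68, 24 equalled the value as reported. Some could not move, such as the count of folds of at least 50 under a threshold of 10. The intervals are wide, and a median fold of 7.27, at the lower limit, was counted as staying. The tally is therefore a description and no measure of robustness. Adding lincRNA and processed-transcript TSSs, using protein-coding transcripts only, or keeping the read-through gene left the counts of peaks at 25 and 19. Counting only summits in the gene or 10 kb on either side left 11 peaks in the set and 6 at Gse1, none at Rcor1, 2 peaks with a fold of at least 50 and a median distance of 4793 bp. Within 100 kb of the TSS, 3 peaks with a fold of at least 50 remained. A fold of at least 10 left 15 peaks, 12 of them at Gse1, and a −log10 q of at least 50 also left 15 and 12, in both cases none at Hdac1. With 25 bp on each side of the summit, GATA motifs were in 40% of the 25 peaks, E-boxes in 20% and the composite in 12%, where all peaks had 48.1%, 33.0% and 19.0%. With 100 bp on each side these shares were 84%, 60% and 52%, where all peaks had 84.6%, 73.6% and 41.2%. The median fold of the set ranged from 7.27 to 19.8 over the alternatives, the latter with a threshold on fold or q, and the median distance rose to 26447 bp at the q threshold and 25341 bp after merging peaks within 500 bp. Leaving out the peak of raised background, chosen after seeing the data, gave 24 peaks with a median fold of 13.8. No paired analysis was possible because both ChIP libraries were merged before this call, and for the same reason no replicate could be left out. Depth limits the peaks with the fewest fragments most, and at the 26 fragments of Hdac1 the interval of the fold ran from 4.84 to 10.5.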
